A study of Mus musculus with 24 samples.

Results

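Bone marrow-derived macrophages (BMDM) that received IL-4 and IL-13 together with oligomycin were compared with BMDM that received IL-4 and IL-13 alone. The comparison used 8 of the 24 RNA-seq libraries of the series, namely the 4 whose library name ends in Oligo and the 4 whose library name ends in M2, and it covered 13679 of the 56884 genes in the count table. Each group held 1 library from each of mice 1, 2, 4 and 5, so every Oligo library was paired with the IL-4/IL-13 library of the same mouse. The mice were wild-type C57BL/6J females, 9 weeks old, and all cells had been grown from bone marrow with M-CSF and replated on day 6. The cytokines acted for 24 h at 20 ng/mL each. In the Oligo group 1 h of pretreatment with the inhibitor, oligomycin at 1 uM, came first. The sources used here state no pretreatment for the IL-4/IL-13 group. The other libraries of the series, 4 each of naive BMDM without the cytokines and of BMDM with IL-4/IL-13 and tunicamycin, Sal003 or the second oligomycin condition, entered the fit for its estimate of the spread.

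The labels contradict each other on 1 point. The titles and treatment fields of the Oligo libraries list ISRIB, a small molecule that counters the integrated stress response, at 1 uM beside oligomycin, whereas their library names and replicate tags list oligomycin alone. The libraries whose names end in Oli_ISR carry the opposite pair of descriptions. Both descriptions include oligomycin, and which of the sets received ISRIB was not settled from the expression values. The groups are called Oligo and Oli_ISR here, after the library names.

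Oligomycin blocks the proton channel of the mitochondrial ATP synthase, so protons cannot return to the matrix through the enzyme and ATP production by oxidative phosphorylation stops. Mitochondrial and other stresses can activate kinases that phosphorylate the translation factor eIF2, which lowers general protein synthesis while favouring translation of the transcription factor ATF4; this integrated stress response (ISR) raises genes of amino acid synthesis, amino acid uptake and tRNA charging. IL-4 and IL-13 act through STAT6 in macrophages and induce the genes of alternative activation, among them Arg1, Retnla and Chil3.

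The 8 libraries held between 16238727 and 20368244 reads on genes. The macrophage markers Csf1r, Adgre1 and Cd68 were abundant in both groups, and the summed level of 16 macrophage markers was 18800 to 21500 CPM (reads on genes, scaled to a common library size by TMM) with IL-4/IL-13 and 18700 to 20100 CPM with Oligo. Of these 16 markers 5 were higher and 9 lower in Oligo. The sums rest mostly on a few abundant genes, such as Lgals3, at 4910 and 7880 CPM on average, and Lyz2, at 5980 and 3940 CPM. Cx3cr1 fell from 1.97 to 0.0368 CPM, and the sum was 36200 to 43200 CPM in naive libraries. Markers of neutrophils summed to 22.3 to 40.6 CPM with IL-4/IL-13 and 2.65 to 4.66 CPM with Oligo, and the 5 tested were all lower, with Ly6g at 3 counts or fewer in every library. The 5 fibroblast markers were also lower, at 16.9 to 88.6 CPM against 6.2 to 55.3 CPM in sum, and of the 3 endothelial markers only Kdr was tested and was higher. The 3 tested dendritic cell markers, Flt3, Zbtb46 and Siglech, were lower, at 5.69 to 7.41 CPM against 1.27 to 2.2 CPM in the sum of 4 with Xcr1, which had 3 counts or fewer. The 1 tested marker each of B cells (Cd79b), T cells (Cd2) and mast cells or basophils (Prss34) was lower as well, and none of these lists summed to more than 2.17 CPM in any of the 8 libraries. The part of such cells in the results was not tested. In bulk libraries a lower level cannot be told apart as fewer cells with a transcript or less of it per cell.

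Genes were tested with edgeR's quasi-likelihood test with the mouse as a block, and p-values were adjusted by the Benjamini-Hochberg method over all 13679 genes. At adjusted p under 0.05, 4789 genes (35%) were higher and 4611 (33.7%) lower in Oligo than in IL-4/IL-13. With a change of at least 2.5-fold as well, 659 genes (4.82%) were higher and 1098 (8.03%) lower. The median log2 fold change of all genes was 0.01, and 90% of genes lay between −1.85 and 1.31. The counts of list members below are to be read against these shares.

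**Figure D1:**
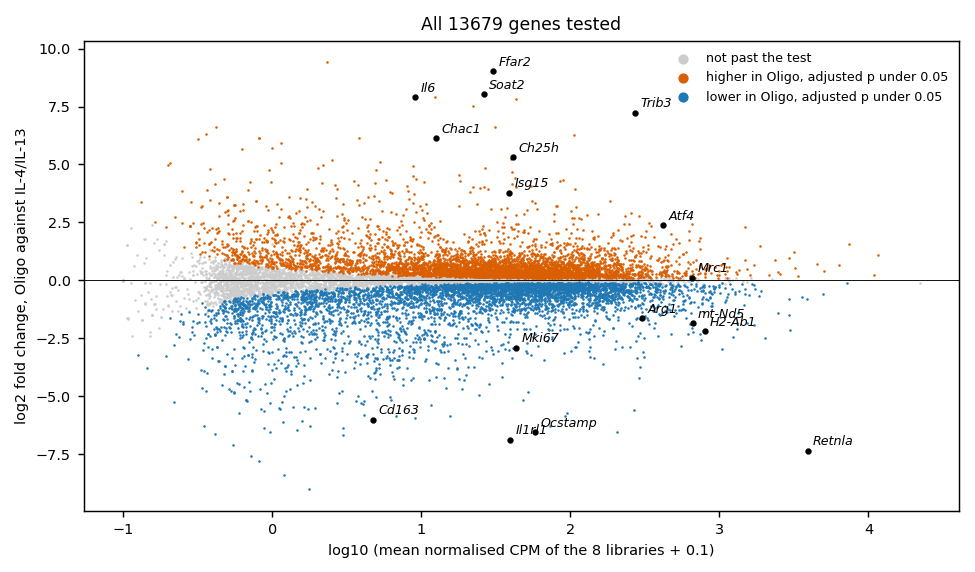
Log2 fold change of each of the 13679 genes tested, Oligo against IL-4/IL-13, plotted against the log10 of the mean normalised CPM of the 8 libraries plus 0.1. Orange genes were higher and blue genes lower in Oligo at adjusted p under 0.05, grey genes did not pass, and black points are named genes, with Trib3 and Ffar2 near the top and Retnla at the lower right.

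Genes that the study names as ISR genes rose together. All 8 were higher in Oligo, 7 of them by at least 2.5-fold, with a median log2 fold change of 2.81. The study had already reported that ISR genes, with Il6 and Slc25a33, rose with oligomycin, so this list is not an independent test. Atf4, the transcription factor at the centre of the response, measured 143, 134, 124 and 142 CPM in the IL-4/IL-13 libraries of mice 1, 2, 4 and 5, and 706, 706, 699 and 706 CPM in the Oligo libraries. The groups did not overlap and the 4 Oligo values lay within a narrow range. The log2 fold change was 2.38 ± 0.061 (SE, n = 4 per group, edgeR adjusted p = 4.9e-20).

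Trib3, a pseudokinase that ATF4 and CHOP induce, measured 3.34, 4.29, 3.42 and 3.16 CPM with IL-4/IL-13 and 546, 531, 561 and 529 CPM with Oligo. Each Oligo library was above each IL-4/IL-13 library, with a log2 fold change of 7.24 ± 0.101 (SE, edgeR adjusted p = 2.9e-24). Asns, asparagine synthetase, went from 8.15 ± 0.973 CPM (SD, n = 4) to 161 ± 1.57 CPM. Ppp1r15a, which encodes the stress-inducible subunit of the eIF2 phosphatase, went from 28.5 ± 2.43 to 184 ± 7.21 CPM. Slc25a33, a mitochondrial pyrimidine nucleotide carrier, was at 1.84 ± 0.305 and 13 ± 1 CPM, and Shmt2, the mitochondrial serine hydroxymethyltransferase, had the smallest rise of the 8, from 43.1 ± 2.26 to 86.3 ± 0.336 CPM.

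Ddit3, which encodes CHOP, was 7-fold higher at 226 ± 10.5 against 32.4 ± 1.7 CPM. On the annotation, 82.4% of its exon bases lie opposite exons of other genes, and no source used here states whether the counting was stranded, so its level may hold reads of those genes. Il6, the cytokine, had 5 reads in all 4 IL-4/IL-13 libraries together and 1461 in the 4 Oligo libraries, at 18.3, 16.5, 20.4 and 16.8 CPM. That is a ratio of 263 with an exact 95% Poisson interval of 113 to 809, which covers counting error only.

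Of the 8 bZIP factors and partners that stress induces, 7 rose. Atf5, a bZIP factor whose translation eIF2 phosphorylation also favours, rose 5.4-fold, and Nupr1, a stress-induced chromatin protein, 8.55-fold. Atf3 went the other way, at 866 ± 14 CPM with IL-4/IL-13 and 720 ± 13.5 CPM with Oligo, and it fell by 0.27 on the log2 scale (SE 0.046, edgeR adjusted p = 2.1e-05). Of 16 genes for the eIF2 kinases, eIF2 and eIF2B subunits, phosphatase subunits and the OMA1-DELE1 relay, 9 rose and 3 fell. The 3 that fell were kinase genes, namely Eif2ak3 (PERK) with a log2 fold change of −0.95, Eif2ak1 (HRI) with −0.39 and Eif2ak4 (GCN2) with −0.25. Dele1, which relays mitochondrial stress to HRI, was at 33.3 ± 1.58 against 32.3 ± 0.802 CPM and did not pass (edgeR adjusted p = 0.41).

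Among 13 other ISR effector genes tested, 11 rose and 1 fell. Chac1, an enzyme that degrades glutathione, was at 0.278, 0.504, 0.158 and 0.425 CPM with IL-4/IL-13 and at 25.6, 23.4, 24.5 and 24.8 CPM with Oligo. Gdf15, a secreted stress cytokine, rose from 2.61 ± 0.53 to 41.7 ± 1.44 CPM and Sesn2, a sestrin that restrains mTORC1, from 31.7 ± 2.48 to 132 ± 5.34 CPM. Herpud1, a protein of ER-associated degradation, fell from 70.2 ± 1.74 to 51.7 ± 3.75 CPM.

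**Figure D2:**
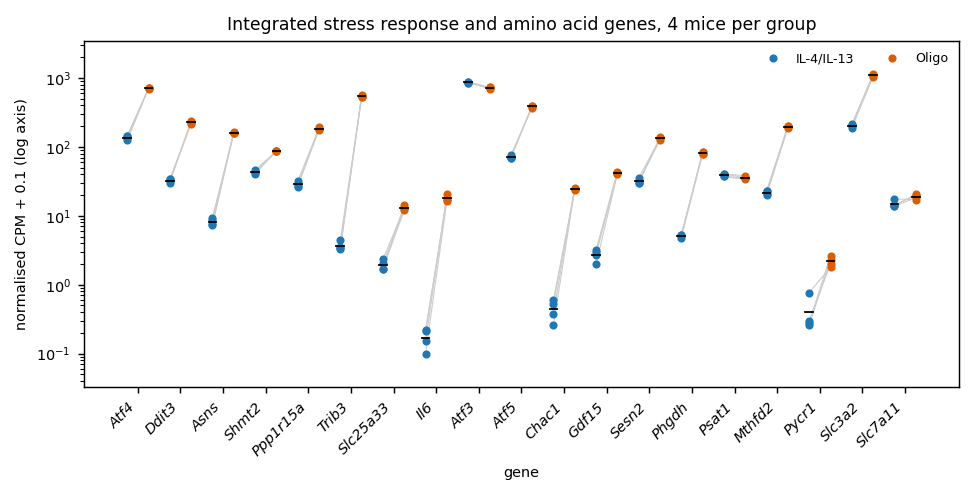
Normalised CPM plus 0.1, on a log axis, of 19 ISR and amino acid genes in the 4 IL-4/IL-13 libraries (blue) and the 4 Oligo libraries (orange). Grey lines join the libraries of 1 mouse and black bars are means; Atf3 and Psat1 do not rise, whereas Trib3 goes from 3.55 to 542 CPM on average.

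Amino acid supply genes rose in the same libraries. Of 17 genes of serine, one-carbon, asparagine and proline synthesis, 12 rose and 4 fell, 8 and 1 of them by at least 2.5-fold. Phgdh, the first enzyme of serine synthesis, went from 5.05 ± 0.262 to 81.4 ± 2.85 CPM and Mthfd2, a mitochondrial folate enzyme, from 21.5 ± 1.41 to 195 ± 5.39 CPM. Psat1, the next enzyme of serine synthesis, was at 38.7 ± 1.72 and 35.7 ± 1.94 CPM and did not pass (edgeR adjusted p = 0.27). The cytosolic and mitochondrial forms of an enzyme differed. Aldh1l2, the mitochondrial formyltetrahydrofolate dehydrogenase, had a log2 fold change of 2.99 at low levels, from 0.121 to 0.807 CPM to 2.7 to 4.23 CPM. Aldh1l1, the cytosolic form, had −2.1, from 35.1 to 39 CPM to 8.3 to 8.9 CPM, and stayed the more abundant. Shmt1, the cytosolic counterpart of Shmt2, had −0.66. For Phgdh, 17.7% of the 75-base stretches of its transcripts also occur in other genes. The reads had 150 bases, so such a share is not the share of reads that match several genes. Among genes named below, the share was 10.1% for Aars1, 11.2% for Gbp11, 13.2% for Hspd1, 14% for H2-DMb2 and 15.6% for Ifi206.

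Of 13 amino acid transporter genes 9 rose and 2 fell. Slc3a2, the shared heavy chain of several exchangers, rose from 202 ± 10.6 to 1100 ± 41 CPM and its partner Slc7a5 had a log2 fold change of 3.08. The cationic amino acid carrier Slc7a1 rose 9.24-fold, whereas Slc1a5, a glutamine carrier, fell from 117 ± 1.66 to 60.3 ± 5.6 CPM. Slc7a11, the cystine carrier, was at 14, 13.6, 17.4 and 14 CPM with IL-4/IL-13 and 19.8, 18.3, 17.1 and 20.5 CPM with Oligo, so the groups overlapped, and it was higher in 3 of 4 mice (edgeR adjusted p = 0.011). That call was lost without mouse 1 (adjusted p = 0.09) and without mouse 5 (adjusted p = 0.067).

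The enzymes that charge tRNAs in the cytosol rose as a group. Of 20 cytosolic aminoacyl-tRNA synthetase genes 17 rose and none fell, with a median log2 fold change of 1.1, and 8 rose by at least 2.5-fold. Aars1, for alanine, was highest in fold, at 75.6, 72.7, 76.4 and 73 CPM against 505, 508, 507 and 501 CPM. Qars1, Hars1 and Farsa did not pass the test. Of 17 mitochondrial synthetase genes 9 rose and 3 fell, none by 2.5-fold, and the median log2 fold change was 0.29.

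Promoters of the genes above were searched for TGATGNAA, the core of the C/EBP-ATF response element (CARE) that ATF4 binds. Both strands of the 300 bases before the annotated start were read from the GRCm39 genome. It was present in 13 of 73 promoters of the ISR, amino acid and cytosolic synthetase lists (17.8%) and in 397 of 13632 promoters of tested genes (2.91%). Of those 13 genes 9 rose, 3 fell (Atf3, Got1 and Herpud1) and Slc38a1 did not pass. Most genes of each of these lists rose in any case, so the lists largely set the direction of the genes with a match. A match to these letters is a description of the sequence and not evidence of binding. The windows of 60 bases below are shown because they hold the match nearest to the start, in capitals on the strand of the gene, in Chac1, Ddit3, Aars1, Pycr1 and Sesn2, which rose, and in Atf3, which fell. They lie at chr2:119181504-119181563 (+), chr10:127126335-127126394 (+), chr8:111760448-111760507 (+), chr11:120534644-120534703 (−), chr4:132238038-132238097 (−) and chr1:190915607-190915666 (−).
Chac1: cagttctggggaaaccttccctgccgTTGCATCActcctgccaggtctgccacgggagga
Ddit3: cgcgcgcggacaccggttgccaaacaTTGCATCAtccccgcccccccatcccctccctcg
Aars1: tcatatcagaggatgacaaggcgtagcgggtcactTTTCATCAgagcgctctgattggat
Pycr1: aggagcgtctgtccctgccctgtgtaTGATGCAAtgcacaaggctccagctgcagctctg
Sesn2: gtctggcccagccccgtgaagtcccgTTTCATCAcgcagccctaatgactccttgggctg
Atf3: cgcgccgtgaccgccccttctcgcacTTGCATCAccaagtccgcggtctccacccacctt

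ER chaperone genes did not rise as a group. Of 24 ER chaperone, degradation and sensor genes, 9 were higher and 12 lower in Oligo, with a median log2 fold change of −0.15. Hspa5, the major ER chaperone BiP, measured 986, 1090, 1200 and 1020 CPM with IL-4/IL-13 and 904, 978, 1090 and 1020 CPM with Oligo; the groups overlapped and the difference did not pass (edgeR adjusted p = 0.064), although it passed under 6 of 11 alternatives. For Hspa5, 44.2% of exon bases lie opposite another gene. Derl3, of ER-associated degradation, had 113 reads in the IL-4/IL-13 libraries and 2 in the Oligo libraries, a ratio of 62.9 with an exact 95% Poisson interval of 17.4 to 519. Ern1, the sensor IRE1, was the largest rise of the list at 3.83-fold.

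Tunicamycin blocks N-glycosylation and so burdens the ER. Tested against the libraries with IL-4/IL-13 and tunicamycin, 4595 genes (33.6%) were higher and 4436 (32.4%) lower in Oligo than with tunicamycin. Of the 24 ER genes 23 were lower in Oligo than with tunicamycin, with a median log2 difference of −3.03, and Hspa5 averaged 12400 CPM with tunicamycin. Of the 8 named ISR genes all 8 were lower than with tunicamycin, by a median of −0.68, and Atf4 averaged 1090 CPM there.

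Genes for mitochondrial chaperones and proteases were mostly higher in Oligo. Of 16 tested, 10 rose and 2 fell. Hspa9, the mitochondrial HSP70, rose from 230 ± 7.19 to 1020 ± 16.4 CPM. Lonp1, a matrix protease, was at 59.7, 67.7, 61.1 and 61.8 CPM with IL-4/IL-13 and 221, 216, 223 and 224 CPM with Oligo, and Hspd1, the chaperonin HSP60, rose 1.83-fold. Trap1 and Phb2 fell slightly, with log2 fold changes of −0.17 and −0.14.

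Most listed genes of oxidative phosphorylation were lower in Oligo, in both genomes. All 7 tested protein genes of mitochondrial DNA fell, 6 of them by at least 2.5-fold, and their median log2 fold change was −1.62. mt-Nd1, a complex I subunit, measured 819, 1120, 853 and 1280 CPM with IL-4/IL-13 and 180, 213, 217 and 209 CPM with Oligo. The IL-4/IL-13 libraries of mice 2 and 5 were above those of mice 1 and 4, and every Oligo library was below all of them. mt-Cytb, of complex III, went from 1110 ± 209 to 234 ± 19.3 CPM and mt-Co1, of complex IV, from 4330 ± 873 to 1530 ± 135 CPM. Genes of the mitochondrial genome took 0.689% to 1.08% of the reads on genes with IL-4/IL-13 and 0.25% to 0.296% with Oligo. The other 6 protein genes of mitochondrial DNA did not reach the count filter, with mt-Atp8 at 0 in every library, and 39.8% of the 75-base stretches of mt-Co1 occur in other annotated genes, and how reads that match several genes were counted is not given in the sources used here.

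Nuclear genes of the same complexes fell by less. Of 36 complex I subunit genes 28 fell and 1 rose, with a median log2 fold change of −0.39. Of 24 listed genes of complexes II to IV 23 fell and none rose, with a median of −0.73, and Uqcrh, a complex III subunit, was the largest fall at 124 ± 6.12 against 27.8 ± 1.69 CPM. Cox6a2, the muscle form of a complex IV subunit, was not on that list and was among the 10 largest rises of all genes. Of 18 genes for the ATP synthase, the target of oligomycin, and its inhibitor, 17 fell and none rose, with a median of −0.74. Their summed mean level was 1830 CPM in naive, 3690 CPM with IL-4/IL-13 and 2140 CPM with Oligo libraries. In the same order the sums were 2090, 3690 and 2130 CPM for complexes II to IV, and 1310, 1880 and 1390 CPM for complex I. Against tunicamycin, 3 of the 18 ATP synthase genes were higher and 1 lower in Oligo, with a median log2 difference of 0.05. Atp5me went from 26.5 ± 2.98 to 9.99 ± 1.54 CPM, and Atp5mc2, 1 of the genes for the membrane ring subunit, was the member that did not pass. Atp5if1, the inhibitor, went from 126 ± 5.61 to 84.5 ± 2.99 CPM.

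Genes of mitochondrial translation and of mitochondrial DNA expression moved in both directions. Of 78 mitochondrial ribosomal protein genes 36 rose and 17 fell, and of 18 genes for transcription and RNA maintenance of mitochondrial DNA 9 rose and 3 fell. Tfam, the factor that packages mitochondrial DNA, was at 26.4 ± 1.23 and 27.9 ± 2.16 CPM and did not pass (edgeR adjusted p = 0.22). Of 17 genes of the TCA cycle and pyruvate dehydrogenase 13 fell and 2 rose, with a median log2 fold change of −0.41. Idh3a, an isocitrate dehydrogenase subunit, fell from 83.2 ± 1.99 to 37.2 ± 1.3 CPM, and the largest rise was Acod1, which makes itaconate, from 1.63 ± 0.595 to 14 ± 4.12 CPM.

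**Figure D3:**
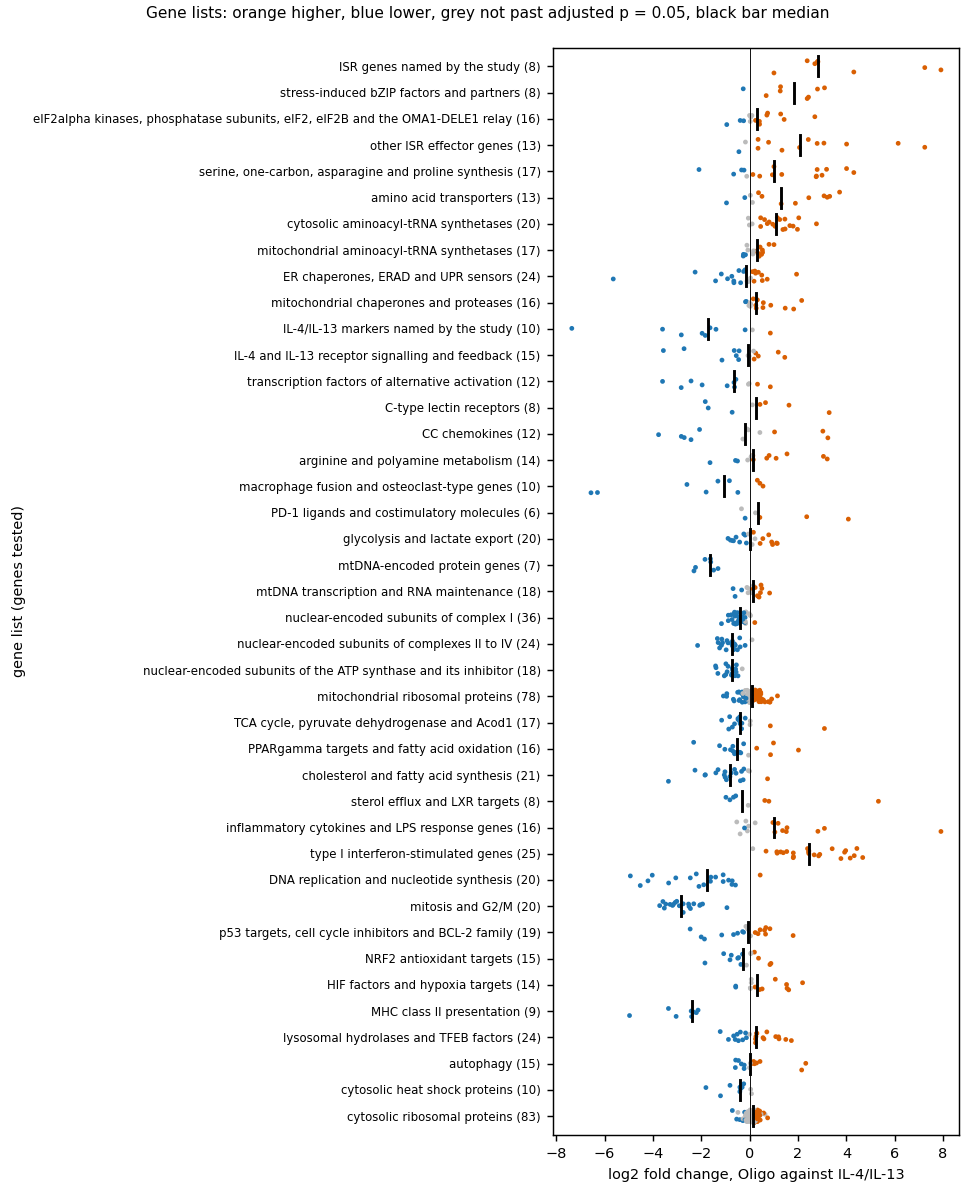
Log2 fold change, Oligo against IL-4/IL-13, of every tested member of the 41 gene lists, with the number tested after each name. Orange members were higher and blue members lower at adjusted p under 0.05, grey members did not pass, and black bars are medians, which run from −2.83 for mitosis to 2.81 for the named ISR genes.

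Markers of the IL-4/IL-13 response were lower with Oligo, to very different degrees. Of the 10 markers the study names, 8 fell, 7 of them by at least 2.5-fold, 1 rose and 1 did not pass, with a median log2 fold change of −1.74. All 10 had a higher mean with IL-4/IL-13 than in naive libraries. The study had already described Klf4 as raised by oligomycin alone and Mrc1 as little changed by any inhibitor. The split among the 10 is therefore not independent of how they were picked. Retnla, a secreted resistin-like protein, measured 7960, 8060, 7830 and 7160 CPM with IL-4/IL-13 and 57.3, 49.3, 58.4 and 33.4 CPM with Oligo. It was the largest of these falls, at −7.36 ± 0.214 on the log2 scale (SE, edgeR adjusted p = 4.7e-19), and the Oligo mean stayed above the naive mean of 0.113 CPM.

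Irf4, a transcription factor of alternative activation, fell 12.2-fold, from 308 ± 9.1 to 25.4 ± 0.847 CPM, with a naive mean of 13.5 CPM. Ccl22, a chemokine, fell 7.1-fold and Egr2, a zinc finger factor, 3.91-fold, at 411, 416, 391 and 422 CPM against 107, 107, 101 and 105 CPM. Arg1, arginase 1, measured 465, 473, 476 and 405 CPM with IL-4/IL-13 and 179, 164, 140 and 110 CPM with Oligo, a fall of 3.11-fold, and the naive mean was 0.0513 CPM. For Arg1, 23.9% of exon bases lie opposite another gene. Chil3, a chitinase-like lectin, fell 2.63-fold to 1370 ± 206 CPM, and the lectin Mgl2 3.57-fold to 108 ± 15.9 CPM. Of 75-base stretches, 10.4% for Chil3 and 5.53% for Mgl2 also occur in other genes, among them Chil4 and Clec10a.

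The other 3 markers were close to their IL-4/IL-13 level or above it. Pdcd1lg2, the PD-1 ligand PD-L2, measured 61.3 ± 4.11 and 53.8 ± 3.63 CPM, so the groups overlapped (log2 fold change −0.19 ± 0.058, SE, edgeR adjusted p = 0.0062), and the naive mean was 0.904 CPM. That call was lost without mouse 5 (adjusted p = 0.071). Mrc1, the mannose receptor CD206, measured 558, 624, 736 and 619 CPM with IL-4/IL-13 and 646, 709, 764 and 619 CPM with Oligo, and did not pass (edgeR adjusted p = 0.066). Klf4, a transcription factor that STAT6 induces, rose to 342 ± 13.1 from 189 ± 7.27 CPM, above the naive mean of 19.9 CPM.

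**Figure D4:**
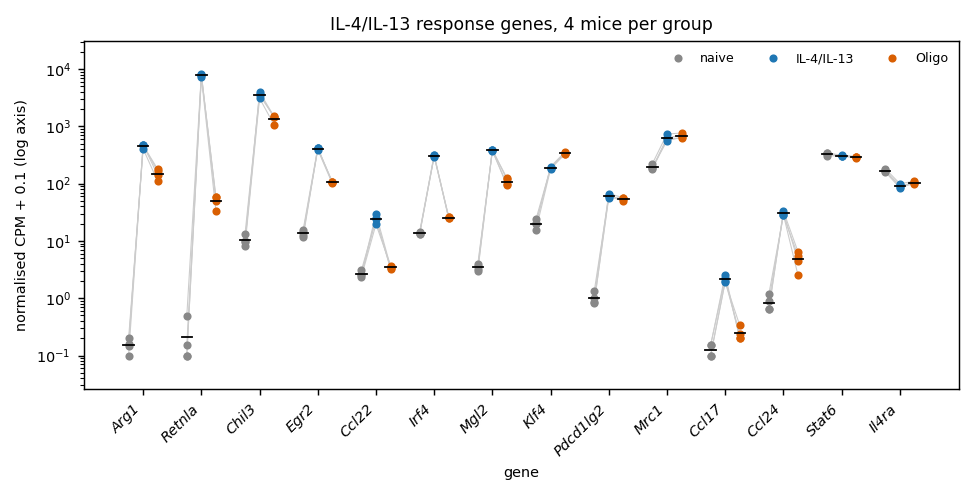
Normalised CPM plus 0.1, on a log axis, of 14 IL-4/IL-13 response genes in the 4 naive (grey), 4 IL-4/IL-13 (blue) and 4 Oligo (orange) libraries, with grey lines joining the libraries of 1 mouse and black bars at the means. Retnla averages 7750 CPM with IL-4/IL-13 and 49.6 CPM with Oligo, whereas Stat6 averages 306 and 292 CPM.

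Stat6 and the receptor chain Il4ra were near their IL-4/IL-13 level, while Il13ra1 was higher. Stat6 was at 306 ± 8.03 and 292 ± 7 CPM (edgeR adjusted p = 0.16, and under 0.05 in 3 of 11 alternatives), and Il4ra, the receptor chain shared by IL-4 and IL-13, at 91.9 ± 6.56 and 104 ± 5.06 CPM, with a log2 fold change of 0.18 ± 0.042 (SE, edgeR adjusted p = 0.00047). Il13ra1, the other chain of the IL-13 receptor, rose by 1.18 on the log2 scale. The feedback inhibitors moved apart: Socs2 fell 11.9-fold and Cish had a log2 fold change of −2.71, whereas Socs3 rose from 3.71 ± 0.784 to 10.1 ± 0.607 CPM and Socs1 did not pass. Of 15 receptor, kinase and feedback genes, 5 rose and 7 fell.

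Of 12 transcription factors of alternative activation 8 fell and 2 rose. Ppargc1b, a coactivator of mitochondrial genes, and Batf3, a bZIP factor, had log2 fold changes of −2.83 and −2.42. Pparg, a nuclear receptor of lipid metabolism, fell from 144 ± 6.21 to 93.4 ± 2.97 CPM, and Myc from 63.2 ± 3.41 to 33.2 ± 1.99 CPM.

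STAT6 dimers bind TTCNNNNGAA, and this motif, which reads the same on both strands, was present in 8 of 25 promoters of the 10 markers and the 15 signalling genes (32%), against 930 of 13632 (6.82%). Of those 8 genes 6 fell, Il4ra rose and Socs1 did not pass. Of the 10 markers 8 fell in any case, as did 7 of the 15 signalling genes. Over all genes lower by at least 2.5-fold the share with the motif was 8.15%, and over those higher it was 7.2%, both near 6.82%. Here and below, a match is not evidence of binding. The windows of Retnla, Arg1, Irf4 and Pdcd1lg2 are shown because these are the 4 markers of the 10 that hold the motif, in capitals. They lie at chr16:48662801-48662860 (+), chr10:24803744-24803803 (−), chr13:30932909-30932968 (+) and chr19:29388211-29388270 (+) of GRCm39.
Retnla: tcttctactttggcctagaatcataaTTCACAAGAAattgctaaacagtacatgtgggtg
Arg1: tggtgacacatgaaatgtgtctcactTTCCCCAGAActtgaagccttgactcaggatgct
Irf4: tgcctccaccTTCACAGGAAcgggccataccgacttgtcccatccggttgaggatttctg
Pdcd1lg2: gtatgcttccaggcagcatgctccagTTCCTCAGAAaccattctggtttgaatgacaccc

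Of 10 genes of macrophage fusion 7 fell, 4 of them by at least 2.5-fold, and 3 rose. Dcstamp and Ocstamp, membrane proteins needed for macrophages to fuse into multinucleated cells, measured 145 ± 11.8 and 115 ± 10.7 CPM with IL-4/IL-13 and 1.84 ± 0.167 and 1.21 ± 0.524 CPM with Oligo. For Dcstamp, 36% of exon bases lie opposite exons of other genes. Mmp12, macrophage elastase, fell 6.04-fold, and Cd200r1, an inhibitory receptor, rose 1.47-fold.

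Chemokine genes split. Of 12 CC chemokine genes 5 fell, all by at least 2.5-fold, and 3 rose. Ccl24, an eosinophil attractant, went from 30.2 ± 2.4 to 4.7 ± 1.71 CPM and Ccl17 from 2.09 ± 0.304 to 0.146 ± 0.0635 CPM, while the monocyte attractants Ccl2 and Ccl7 had log2 fold changes of 1.03 and 3.03. Ccl3, Ccl4 and Ccl5 did not pass. Among 6 PD-1 ligand and costimulatory genes 3 rose: Cd86, which costimulates T cells, went from 6.02 ± 0.591 to 102 ± 7.36 CPM, and Cd274, the PD-1 ligand PD-L1, from 113 ± 4.68 to 579 ± 17.6 CPM.

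Lectin receptor genes also split, with 4 of 8 higher and 3 lower. Clec7a, the beta-glucan receptor dectin-1, fell from 1070 ± 56.6 to 649 ± 7.35 CPM, and Clec4e, which senses damage and mycobacterial glycolipid, rose 9.77-fold. Clec10a rose from 49.4 ± 1.35 to 78 ± 8.98 CPM while its close relative Mgl2 fell.

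Of 14 arginine and polyamine genes 8 rose and 3 fell. Ass1, which makes argininosuccinate, had a log2 fold change of 3.05, and Odc1, the first enzyme of polyamine synthesis, rose from 64.7 ± 2.97 to 113 ± 2.39 CPM, so these moved opposite to Arg1. Nos2, the inducible nitric oxide synthase, was near the detection floor, with 8 reads in the IL-4/IL-13 libraries and 27 in the Oligo libraries.

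Type I interferon-stimulated genes were higher in Oligo than in IL-4/IL-13. Of 25 tested 24 rose and none fell, 20 by at least 2.5-fold, with a median log2 fold change of 2.45. All 25 had a higher mean in naive libraries than with IL-4/IL-13, and their summed mean level was 5170 CPM in naive, 941 CPM with IL-4/IL-13 and 3990 CPM with Oligo libraries. Isg15, a ubiquitin-like protein, measured 5.9, 4.84, 4.84 and 5.58 CPM with IL-4/IL-13 and 80.5, 80.8, 52.6 and 75.5 CPM with Oligo, and 59.5 CPM on average in naive libraries. Irf7, a transcription factor that amplifies interferon genes, measured 29.5, 28, 29.9 and 39 CPM against 354, 359, 270 and 365 CPM. In both genes the Oligo library of mouse 4 was the lowest of its group and still above every IL-4/IL-13 library. Ifi44 rose 25.6-fold, whereas Usp18, an inhibitor of the interferon receptor, had a log2 fold change of 0.68. For Isg15, 31.1% of exon bases lie opposite another gene.

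The interferon-stimulated response element was searched as GAAANNGAAA on both strands of the same 300 bases and was present in 12 of 25 promoters of these genes (48%), against 537 of 13632 (3.94%). All 12 of those genes rose, as did 24 of all 25, so the list largely set this direction. Of the 5 windows with more than 1 match, that of Isg15 is shown because it holds the most, and those of Usp18 and Ifit1 because these genes had the smallest and the largest rise of the 5. The matches are in capitals, and the windows lie at chr4:156285308-156285367 (−), chr6:121222780-121222839 (+) and chr19:34618178-34618237 (+) of GRCm39.
Isg15: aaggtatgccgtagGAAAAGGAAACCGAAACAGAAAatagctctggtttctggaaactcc
Usp18: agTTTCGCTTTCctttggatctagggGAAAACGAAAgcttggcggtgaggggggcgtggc
Ifit1: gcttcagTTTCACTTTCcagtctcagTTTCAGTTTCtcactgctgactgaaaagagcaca

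Other inflammatory genes were less uniform. Of 16 cytokine and LPS response genes 9 rose, 1 fell and 6 did not pass. Ptgs2, which makes prostaglandins, rose from 2.32 ± 0.38 to 5.19 ± 0.474 CPM, and Il1b was at 0.502 ± 0.183 and 0.464 ± 0.377 CPM (edgeR adjusted p = 0.85). Tnfaip3, the inhibitor A20, was the 1 that fell, at 44.1 ± 4.82 and 38 ± 4.44 CPM, and it did not pass without the block (adjusted p = 0.056).

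MHC class II presentation genes all fell. The 9 tested were lower by at least 2.5-fold, with a median log2 fold change of −2.4. H2-Ab1, a chain of the class II molecule I-A, measured 1230, 1340, 1330 and 1340 CPM with IL-4/IL-13 and 273, 308, 265 and 292 CPM with Oligo, below the naive mean of 670 CPM. Ciita, the transactivator of the class II genes, had a log2 fold change of −3.04, and the peptide-exchange gene H2-DMb2 fell from 7.11 ± 0.537 to 0.22 ± 0.0823 CPM. The dendritic cell and B cell markers were lower in the same libraries, at up to 7.41 and 2.17 CPM in sum with IL-4/IL-13, and their part in the class II result was not tested.

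Cell cycle genes fell as well. All 20 mitosis and G2/M genes were lower, 19 by at least 2.5-fold, with a median log2 fold change of −2.83, and their summed mean level was 169 CPM in naive, 546 CPM with IL-4/IL-13 and 85.7 CPM with Oligo libraries. Mki67, the proliferation antigen, measured 82.7, 68.8, 88.1 and 63.7 CPM with IL-4/IL-13 and 10.4, 9.03, 9.37 and 11.5 CPM with Oligo. Of 20 replication and nucleotide synthesis genes 19 fell and only Cdt1, a licensing factor, rose. Mcm5, of the replicative helicase, fell 10.2-fold, and Rrm2, the ribonucleotide reductase subunit, fell 30.6-fold, with 43.3% of its exon bases opposite another gene. Cdkn1a, the cell cycle inhibitor p21, rose from 364 ± 12.8 to 652 ± 33.6 CPM, while of 19 p53 target, inhibitor and BCL-2 family genes 8 rose and 8 fell.

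**Figure D5:**
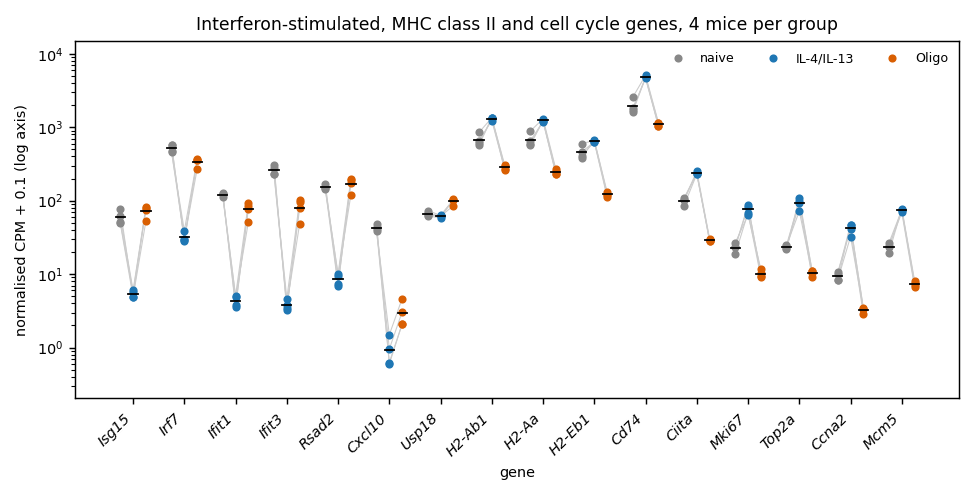
Normalised CPM plus 0.1, on a log axis, of 7 interferon-stimulated, 5 MHC class II and 4 cell cycle genes in the 4 naive (grey), 4 IL-4/IL-13 (blue) and 4 Oligo (orange) libraries, with black bars at the means. Isg15 averages 59.5, 5.29 and 72.3 CPM in these groups, while Mki67 averages 22.9, 75.8 and 10.1 CPM.

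Lipid genes were mostly lower. Of 21 cholesterol and fatty acid synthesis genes 18 fell and 1 rose, with a median log2 fold change of −0.82. Of 16 PPAR-gamma target and fatty acid oxidation genes 11 fell and 4 rose: Cpt1a, which admits fatty acids into mitochondria, fell from 238 ± 20.1 to 147 ± 7.97 CPM, and Fabp5, a fatty acid binding protein, rose from 187 ± 9.16 to 759 ± 24.3 CPM. Ch25h, which makes 25-hydroxycholesterol, measured 2.45, 1.87, 1.58 and 2.06 CPM with IL-4/IL-13 and 78.3, 73.9, 101 and 66.7 CPM with Oligo, although 50.3% of its exon bases lie opposite another gene. Of the 8 sterol efflux and LXR target genes it belongs to, 3 rose and 4 fell, among them Abca1 and Abcg1, the exporters.

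Glycolysis genes split, while more hypoxia genes rose than fell. Of 20 glycolysis genes 8 rose and 9 fell, none by 2.5-fold. Slc2a1, the glucose transporter GLUT1, rose from 58.4 ± 7.19 to 112 ± 7.81 CPM and Ldha from 667 ± 28.1 to 974 ± 56.7 CPM, while Hk2 did not pass. Of 14 HIF factor and hypoxia target genes 8 rose, 4 of them by at least 2.5-fold, and 2 fell by less, and Vegfa, the angiogenic factor, rose from 43.8 ± 2.72 to 200 ± 5.78 CPM.

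The 10 largest rises and falls were taken among genes averaging at least 50 reads and moving the same way in all 4 mice. Ffar2, a receptor for short-chain fatty acids, had 8 reads in the IL-4/IL-13 libraries together and 4897 in the Oligo libraries, a ratio of 550 with an exact 95% Poisson interval of 279 to 1270. Soat2, an enzyme that esterifies cholesterol, was at 0.191 ± 0.0637 and 51.9 ± 1.09 CPM, and F5, coagulation factor V, at 0.37 ± 0.201 and 85.7 ± 15.3 CPM. The other rises were Gbp11, Sh2d6, Cox6a2, Ifi206 and Avil besides Il6 and Trib3. Cox6a2 is the muscle form of a complex IV subunit, and it rose from 0.601 ± 0.247 to 61.5 ± 5.66 CPM while the common form Cox6a1 had a log2 fold change of −0.51.

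The largest falls were Retnla, Il1rl1, Smim5, Ocstamp, Ear2, Mir9-3hg, Dcstamp, Cd163, Cd300lg and Pclaf. Il1rl1, the IL-33 receptor ST2, measured 78.9, 80.9, 76.1 and 75.4 CPM with IL-4/IL-13 and 1.09, 0.376, 0.995 and 0.2 CPM with Oligo. Ear2, an eosinophil-associated ribonuclease, fell from 407 ± 19.8 to 4.41 ± 0.528 CPM, and 14.1% of its 75-base stretches occur in other genes, among them Ear1 and Ear10. Cd163, the haemoglobin scavenger receptor, fell from 9.14 ± 1.23 to 0.134 ± 0.0903 CPM.

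Oligo was also compared with the libraries named Oli_ISR, bearing in mind the opposite descriptions. Of all genes, 2934 (21.4%) were higher and 3128 (22.9%) lower in Oligo than in Oli_ISR. Of the 8 named ISR genes 7 were higher in Oligo and none lower, and Trib3 averaged 542 CPM in Oligo and 146 CPM in Oli_ISR. Of the 10 IL-4/IL-13 markers 7 were lower and 2 higher in Oligo: Arg1 averaged 148 CPM in Oligo and 295 CPM in Oli_ISR, and Mgl2 averaged 108 and 65.7 CPM. The interferon-stimulated genes went differently, with none of 25 higher and 10 lower in Oligo than in Oli_ISR, and of the 7 mitochondrial DNA genes 1 was higher and none lower. Among the 25, Bst2 varied by mouse, at 288.4, 422, 226.5 and 418.6 CPM in the Oli_ISR libraries of mice 1, 2, 4 and 5. In the Oligo libraries it was at 234.8, 226.7, 209.3 and 224.1 CPM.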

How the data were processed

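Poly(A) RNA of 24 BMDM libraries was sequenced as single reads of 150 bases. Per the submitters' processing notes, the authors used cutadapt 1.8, STAR 2.7 on GRCm39 and HTSeq 0.9.1, and the deposited values are raw read counts per Ensembl gene. The strand setting is not given in the sources used here. The deposited TPM table (RSEM 1.2.31) was not used, because its header has more names than its rows have cells. Reads on no gene (13.3% to 15.2% per library over the 8 compared) were left out. Symbols and positions came from the GENCODE annotation of GRCm39.

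Counts were normalised by TMM in edgeR 4.0.16 (R 4.3.3), filtered by filterByExpr and fitted by quasi-likelihood over all 24 libraries with group and mouse. Precision was high, with a median biological coefficient of variation of 5.81%. The SE of a log2 fold change was its absolute value divided by the square root of the F value of its test, from this fit. Same-numbered libraries come from 1 mouse, per the titles, and their deviations from the group means correlated in 55 of 60 pairs by more than 0.1 (13 of 180 pairs of different mice), so the replicate block was kept. The p-values rest on the spread left over all 24 libraries, from 4 mice, after group and mouse differences were removed. The scripts were checked on simulated counts.

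The 41 gene lists and the comparison were chosen with earlier results of these data known. Genes named in full were drawn from the key genes of each list and its largest rise and fall past the test. The 10 largest rises and falls with at least 50 reads on average and 1 direction in 4 mice were added. The 148 genes picked this way are counted as the named genes below. The text does not give all of them, for example Hif1a, Ccl12 and Hk3. Further list members are named as examples, chosen after their values were seen. Alternatives were DESeq2 1.42.0, its size factors, upper-quartile scaling, 2 other count filters, no block, the 8 libraries alone and each mouse left out. Values of some genes of cholesterol metabolism are not reported here.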

Additional observations from a re-analysis of the deposited data

Results flagged for a closer look

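In 20 of 296 groups of 4 libraries, over the 148 named genes in the IL-4/IL-13 and Oligo groups, 1 library lay farther from the rest than Dixon's 95% limit allows (6.76%, where chance gives about 1 in 20). With IL-4/IL-13, mouse 1 was lowest for Angptl4 (8.47 CPM) and H2-Ab1 (1230 CPM) and highest for Pycr1 (0.668 CPM against 0.158 to 0.202 CPM in the others). Mouse 4 was lowest for Atp5if1 (118 CPM), Btg2 (112 CPM) and Cars2 (21.6 CPM) and highest for Eif2ak3 (49.1 CPM) and Slc7a11 (17.4 CPM), and mouse 5 was lowest for Arg1 (405 CPM). With Oligo, mouse 4 was lowest for Irf7 (270 CPM against 354 to 365 CPM) and Atf4 (699 CPM against 706 CPM) and highest for Fabp4 (88.9 CPM), Ffar2 (70.9 CPM), Gusb (294 CPM) and Slc7a1 (155 CPM). Mouse 5 was lowest for Chil3 (1060 CPM against 1430 to 1500 CPM) and Cd163 (0 CPM) and highest for Gclm (340 CPM), and mouse 2 was lowest for Ccna2 (2.73 CPM) and Soat2 (50.3 CPM).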

How the results depend on the processing

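Over 11 alternatives, the counts of genes higher and lower in Oligo stayed within 1.5 times, except that requiring at least 10 reads in every library (11640 genes tested) left 391 genes higher and 690 lower by at least 2.5-fold. This filter removes genes with few reads in 1 group. Of 1606 values for 148 named genes, 1583 kept their direction and call. Calls were lost in 9 values of Ndufs5, Pdcd1lg2, Slc7a11 and Tnfaip3, and gained in 11 values of Hspa5, Mrc1, Psat1 and Stat6. With 1 mouse left out, the log2 fold change ranged from −0.462 to 0.183 for Il1b, above 0 without mouse 1 and without mouse 4 (0.154), and from −0.004 without mouse 5 to 0.139 for Tfam, and the values whose sign turned did not pass. The causes were not tested. Of 82 counts of list members 71 stayed within 1.5 times; the others were counts of few genes, apart from arginine and polyamine genes higher (5 instead of 8 without mouse 1), autophagy genes higher (4 instead of 7 without mouse 4), genes of mitochondrial DNA expression lower (5 instead of 3 with DESeq2) and ribosomal protein genes lower (13 instead of 6 with the 8 libraries alone). The median log2 fold change of all genes lay between −0.025 and 0.011.

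Without the replicate block, which pairs libraries of 1 mouse, 4651 genes were higher and 4400 lower, and of the named genes only Tnfaip3 lost its call. Reads on few-read genes limit their folds, and 6 protein genes of mitochondrial DNA could not be tested.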

Other observations

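Lysosomal and autophagy genes split. Of 24 lysosome genes 13 rose and 10 fell. Npc1, which exports cholesterol from lysosomes, rose from 292 ± 30.8 to 962 ± 56.8 CPM (SD, n = 4 per group), and the proteases Ctsl and Ctsd had log2 fold changes of 1.49 and 1.21. Gusb, beta-glucuronidase, fell from 635 ± 52.8 to 273 ± 14.4 CPM, and Tfeb, a transcription factor of lysosomal genes, had −0.66. Of 15 autophagy genes 7 rose and 6 fell. The cargo receptor Sqstm1 (p62) measured 482, 491, 508 and 510 CPM with IL-4/IL-13 and 2390, 2480, 2520 and 2550 CPM with Oligo, and Optn, another cargo receptor, rose from 12.1 ± 0.529 to 53.6 ± 2.49 CPM. The starter kinase gene Ulk1 and Map1lc3b fell, with log2 fold changes of −0.59 and −0.58.

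Of 15 NRF2 target genes 4 rose and 8 fell. Gclm, for glutathione synthesis, rose from 179 ± 11.1 to 328 ± 7.46 CPM, G6pdx, of the pentose phosphate pathway, fell from 387 ± 18.1 to 184 ± 5.46 CPM, and Hmox1, heme oxygenase, did not pass (edgeR adjusted p = 0.54). Of 10 heat shock genes 8 fell and none rose, among them Bag3, a co-chaperone, from 120 ± 4.16 to 68.2 ± 1.39 CPM. Hspa1b fell as well, but 55.8% of its 75-base stretches occur in other genes. Of 83 cytosolic ribosomal protein genes 27 rose and 6 fell, none by 2.5-fold.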
